A study of Mus musculus with 30 samples.

Results

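Twist1, Pdgfb, Pls1, Plxnb2, Rasal2, Bmp1, Rasgef1b, Tspan9, Plaur and Cables1 are 10 mouse genes whose RNA level differed between Furin knockout (KO) and wild-type (WT) CD8 T cells with and without added cytokines. They were picked by symbol for that shift and matched to the count table by Ensembl identifier. All 10 were among the 55573 genes of the table and among the 11718 genes that passed the filter on low counts. In KO, 7 of them stood higher (Twist1, Pdgfb, Pls1, Plxnb2, Rasal2, Bmp1 and Rasgef1b) and 3 stood lower (Tspan9, Plaur and Cables1). Because the KO against WT difference chose these genes, it is given as values with no test, and the cytokine effects are the tested part. The cytokine tests use libraries that also chose the genes, so they are not fully independent of that choice.

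The data were 30 RNA-seq libraries of naive CD8 T cells from C57BL/6 mice (age 8 weeks), purified from lymph nodes and spleen by magnetic sorting. All cells were cultured for 3 days without serum and stimulated by plate-bound antibodies to CD3 and CD28 (5 µg/ml of each), which stand in for antigen and co-stimulation. Each genotype was grown without an added cytokine, with recombinant TGFB1 at 0.5 ng/ml or with recombinant IL12 at 10 ng/ml, and each of these 6 groups had 5 libraries. The groups are therefore WT without cytokine, KO without cytokine, WT with TGFB1, KO with TGFB1, WT with IL12 and KO with IL12, and all of them had the antibody stimulation. Each genotype had 4 females and 1 male (WT 62 and KO 63). The labels name the genotype as a Furin KO and give neither the promoter or cell type in which the gene was deleted nor the part removed. Library numbers recur across the conditions (62, 67, 71, 72 and 75 in WT, 63, 68, 70, 73 and 74 in KO), but the labels do not say that equal numbers are one mouse. Where libraries of a group share no stated origin, p-values measure only the spread between these libraries, which may be technical.

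Furin is a proprotein convertase of the secretory pathway, which cuts precursor proteins into their active forms, TGFB1 among them. TGFB1 restrains the effector program of T cells, and IL12 drives CD8 T cells toward an interferon-producing cytotoxic state. The 10 genes come from different families. Twist1 is a basic helix-loop-helix transcription factor. Pdgfb is a secreted growth factor chain, Bmp1 a secreted metalloprotease of the tolloid family and Plxnb2 a receptor for semaphorins. The products of these 3 genes are themselves made as precursors that convertases of the furin type are known to cleave. Plaur is the surface receptor of urokinase, and Tspan9 is a tetraspanin, a small membrane protein that organises others at the surface. Rasal2 and Rasgef1b act on small GTPases of the Ras family in opposite ways, Pls1 bundles actin filaments, and Cables1 binds cyclin-dependent kinases.

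Promoters of 7 of the 10 genes (not Pdgfb, Bmp1 or Cables1) were taken from RefSeq (GRCm38.p6), with 11 entries in all, and the 250 bases before each start site were searched on both strands. A pair is printed here, 1 gene of each direction, because each holds letters known from the families of factors named above or from T-cell activation. For Pls1, higher in KO, capitals mark the E-box letters CANNTG, to which helix-loop-helix factors bind. They begin 233 and 104 bases before the start. The stretch is chr9:95845280-95845529, minus strand.
Pls1: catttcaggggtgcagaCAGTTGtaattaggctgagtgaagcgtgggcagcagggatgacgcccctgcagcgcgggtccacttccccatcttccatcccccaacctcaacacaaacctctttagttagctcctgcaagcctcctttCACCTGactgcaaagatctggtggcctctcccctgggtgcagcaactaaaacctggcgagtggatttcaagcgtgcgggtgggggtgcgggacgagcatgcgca
For Plaur, lower in KO, capitals mark the AP-1 letters TGANTCA, bound by Jun and Fos factors. They begin 69 bases before the start. The stretch is chr7:24462233-24462482, plus strand.
Plaur: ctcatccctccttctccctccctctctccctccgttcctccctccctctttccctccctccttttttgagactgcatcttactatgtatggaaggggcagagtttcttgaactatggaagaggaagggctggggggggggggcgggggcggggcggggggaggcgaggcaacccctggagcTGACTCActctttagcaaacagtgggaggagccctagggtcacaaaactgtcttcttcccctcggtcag
E-box letters were in 5 of the 11 entries (Pls1, Plxnb2, Rasgef1b and Tspan9) and in 66.2% of the 32851 promoters of the same length. AP-1 letters were in 1 entry (Plaur) and in 6.75% of all promoters. The STAT letters TTCNNNGAA, the kind of site used by the factor that IL12 activates, were in 1 entry (Tspan9) and in 7.02% of all promoters. These are matches of letters within a window and show no binding. None of the 3 letter patterns contains another.

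Furin itself did not separate the labels without cytokine or with TGFB1. Its level in CPM (counts scaled to the depth of the library, with TMM factors) ran from 28.8 to 38.5 in WT and from 31.5 to 33.9 in KO without cytokine, and from 73.9 to 93.2 in WT and 66 to 90.2 in KO with TGFB1. A count over the whole gene does not check a deletion whose position is not given, so KO means the libraries labelled KO throughout. With IL12, WT libraries 62 and 67 stood apart, with Furin at 161 and 182 CPM against 485 to 533 CPM in the other 3. KO library 74 had 463 CPM against 120 to 196 CPM in the other 4. The means with IL12 were 214 CPM in KO and 375 CPM in WT, with overlap. The log2 difference was −0.81 ± 0.282 (SE, adjusted p = 0.0799 in edgeR's quasi-likelihood test). Without WT 62 and 67, every KO value lay below every WT value. Leaving out WT 62 and 67 of the IL12 group was chosen after seeing the data. It raised the genes called in KO against WT with IL12 from 794 to 2664 of all those tested. Leaving out KO 74 of the IL12 group alone gave 684 genes. The KO against WT values of the 10 genes with IL12 are given with and without WT 62 and 67. So are the IL12 effects in WT that moved by over 1.5 times. Library totals ran from 7306151 to 15502443 counts. All 10 markers of CD8 T cells (such as Cd8a and Cd3e) were measured in every library, with a summed level of 3240 to 6440 CPM.

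Most markers of other cells were low, and their part in the results was not tested. Of the 8 B-cell markers only Cd79b reached 1 CPM. The summed B-cell list ran from 9.56 to 16.8 CPM in WT and from 6.09 to 10.9 CPM in KO without cytokine. Of 10 macrophage markers only Cd68 reached 1 CPM (mean 2.77 CPM), and the sum was 1.56 to 3.77 CPM in WT and 2.8 to 4.75 CPM in KO without cytokine. None of the 11 platelet and erythroid markers reached 1 CPM, and their sum was 0.411 to 1.44 CPM in WT and 0.66 to 2.38 CPM in KO without cytokine. Only Pdpn and Pecam1 of 13 stromal and endothelial markers, Zbtb46 of 7 dendritic markers, Mpo of 8 neutrophil markers and Eomes of 6 natural killer markers reached 1 CPM. Of the 3 CD4 T-cell markers, Cd4 averaged 0.482 CPM, Zbtb7b 16.5 CPM and Cd40lg 3.56 CPM. The summed natural killer list, nearly all of it Eomes (mean 15 CPM), moved with genotype and cytokine. It ran from 13 to 23 CPM in WT and 6.39 to 12.3 CPM in KO without cytokine, from 1.33 to 7.95 and 0.52 to 1.51 CPM with TGFB1, and from 27.3 to 44.5 and 19.2 to 35.1 CPM with IL12. Its other 5 markers averaged at most 0.132 CPM. The stromal and endothelial sum, mostly Pecam1 (mean 39.1 CPM), was 50.7 to 79 CPM in WT and 43.1 to 60.1 CPM in KO without cytokine. With TGFB1 it was 29.8 to 88.3 and 22 to 45.1 CPM, and with IL12 15.1 to 40.9 and 13 to 35.4 CPM. Cdh5 was at 0 in 29 libraries and Pdgfra in all 30. In bulk RNA, fewer cells of a type and less RNA per cell cannot be told apart.

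Without an added cytokine, all 10 genes were past an adjusted p of 0.05 in edgeR's quasi-likelihood fit, against 2.10% of all genes tested, and with TGFB1 all 10 were, against 35.6%. With IL12, 9 of 10 passed, all but Cables1, against 6.78% of all genes. The groups did not overlap for 8, 4 and 6 of the 10 genes without cytokine, with TGFB1 and with IL12, where 6.55%, 7.64% and 5.06% of all genes did not overlap. Since the genes were picked on this contrast, nothing is read from these counts. Of all genes tested, 0.179% were called higher and 0.290% lower in KO in all 3 conditions. The median log2 difference of the 7 higher genes was 1.35, 1.07 and 1.48 in the 3 conditions, and that of the 3 lower genes was −2.28, −1.52 and −2.20, while the median over all tested genes was −0.0019, −0.0061 and −0.0004. Fold changes below are log2 of KO over WT with their standard error (SE), and the plot of levels by library shows every value behind them.

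**Figure D1:**
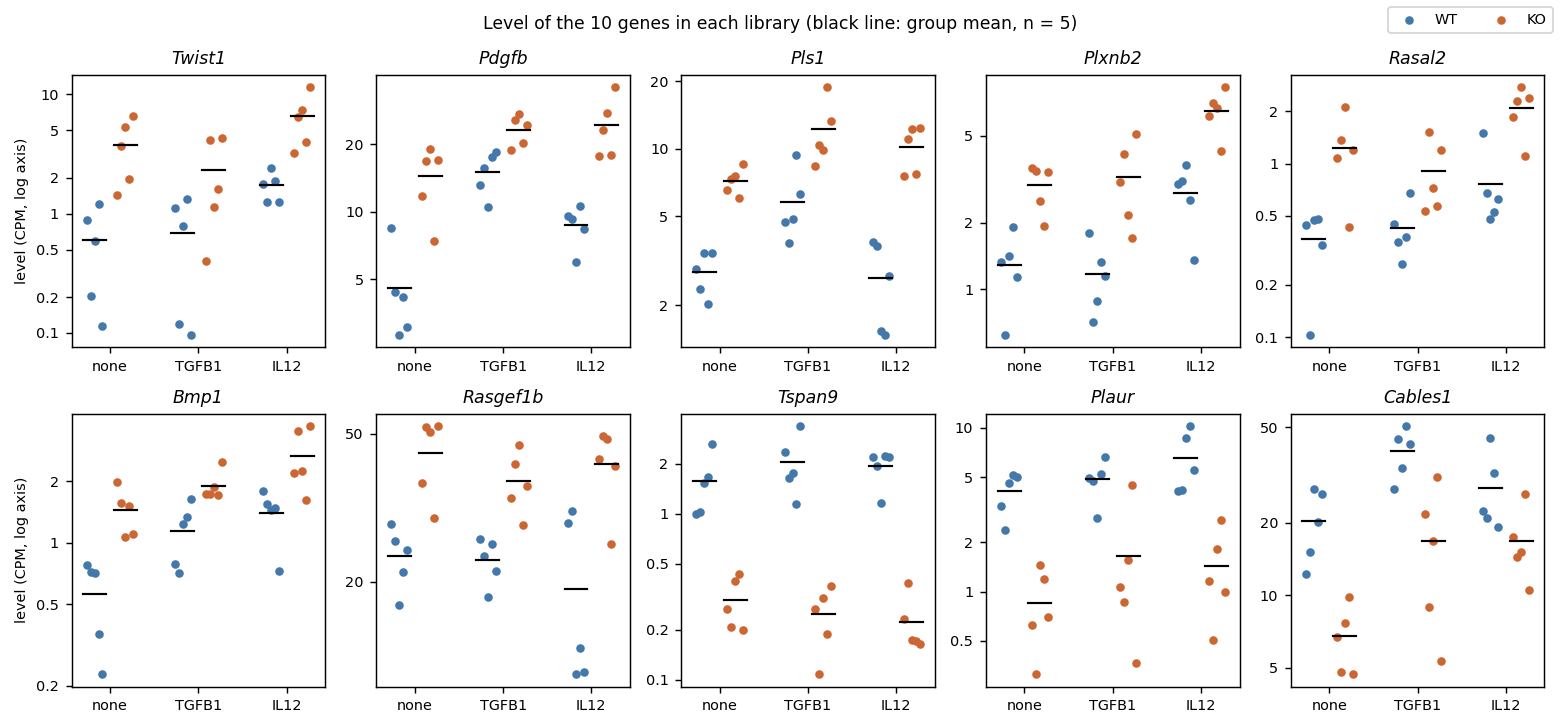
Level of each gene in CPM (log axis) in all 30 libraries, with WT in blue, KO in orange and the mean of each group of 5 as a black line. The 5 KO libraries of Tspan9 lie below all WT libraries in every condition, while the genotypes of Rasal2 overlap in every condition.

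The transcription factor Twist1 (ENSMUSG00000035799, GRCm38 chromosome 12, 33957671 to 33959829, plus strand) had a large difference and the widest spread. Values are given in the order of library numbers, 62, 67, 71, 72 and 75 for WT and 63, 68, 70, 73 and 74 for KO. Without cytokine, Twist1 stood at 0.89, 0.206, 0.589, 1.2 and 0.114 CPM for WT, against 1.43, 3.65, 5.28, 1.94 and 6.59 CPM for KO. Every KO library was above every WT library, and the difference was 2.64 ± 0.655 (SE, 5 libraries a group), a fold of 6.25. With TGFB1 it stood at 1.12, 0.118, 0.794, 1.33 and 0.0961 CPM for WT, against 0.399, 4.1, 1.14, 1.61 and 4.33 CPM for KO, a difference of 1.74 ± 0.624. Here the groups overlapped, because KO 63 and KO 70 lay below the highest WT library. With IL12 the values were 1.78, 1.26, 2.41, 1.89 and 1.24 CPM for WT, against 3.24, 6.5, 7.42, 4.01 and 11.5 CPM for KO, without overlap. The difference there was 1.93 ± 0.497 (1.82 without WT 62 and 67). The single KO male, library 63, had the lowest KO level in each condition, while the WT male, library 62, was not the lowest in any. These levels are small, with counts of 1 to 25 in WT and 3 to 140 in KO.

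Of the secreted and receptor genes, Pdgfb (ENSMUSG00000000489, chromosome 15, 79995874 to 80014977, minus strand) had the smallest difference with TGFB1. It encodes the B chain of platelet-derived growth factor. Its cytokine-free level was 8.45, 4.42, 2.83, 4.19 and 3.06 CPM for WT, against 11.7, 16.9, 19.1, 7.45 and 17.0 CPM for KO, a difference of 1.64 ± 0.27. The overlap came from WT 62, the highest of its group, and KO 73, the lowest. With TGFB1 the values were 13.2, 15.6, 10.5, 17.5 and 18.4 CPM for WT, against 18.9, 25.5, 27.1, 20.3 and 24.4 CPM for KO. The groups lay next to each other without overlap, and the difference was 0.63 ± 0.237. Under IL12 it read 9.57, 9.3, 5.97, 10.6 and 8.39 CPM for WT, against 17.7, 23.1, 27.5, 17.9 and 35.9 CPM for KO, well apart. The difference there was 1.48 ± 0.244 (1.55 without WT 62 and 67).

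Plxnb2 (ENSMUSG00000036606, chromosome 15, 89155549 to 89180788, minus strand), the semaphorin receptor plexin B2, kept nearly the same distance between the genotypes in the 3 conditions. Its level without cytokine was 1.33, 0.617, 1.41, 1.91 and 1.14 CPM for WT, against 3.57, 3.44, 2.51, 1.94 and 3.4 CPM for KO, a difference of 1.23 ± 0.324. With TGFB1 the level was 1.79, 0.708, 0.883, 1.33 and 1.15 CPM for WT, against 3.06, 4.1, 2.18, 1.71 and 5.06 CPM for KO, a difference of 1.45 ± 0.321. KO 73 was the lowest KO library both times and fell among the WT values with TGFB1. With IL12 both genotypes stood higher, at 3.01, 3.1, 3.66, 2.53 and 1.35 CPM for WT, against 6.13, 7.0, 6.64, 4.27 and 8.32 CPM for KO, without overlap. The difference there was 1.25 ± 0.272 (1.36 without WT 62 and 67).

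Bmp1 (ENSMUSG00000022098, chromosome 14, 70474558 to 70520234, minus strand), the tolloid protease that trims procollagens and other matrix precursors, was measured at 2 to 55 counts a library. Without cytokine it stood at 0.779, 0.72, 0.707, 0.359 and 0.227 CPM for WT, against 1.97, 1.57, 1.06, 1.51 and 1.1 CPM for KO, without overlap, and the difference was 1.35 ± 0.347. With TGFB1 the WT range was 0.708 to 1.63 CPM and the KO range 1.71 to 2.49 CPM, a difference of 0.72 ± 0.287. With IL12 the ranges met, at 0.725 to 1.78 CPM in WT and 1.62 to 3.71 CPM in KO. The difference there was 0.95 ± 0.27 (1.13 without WT 62 and 67).

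Plaur (ENSMUSG00000046223, chromosome 7, 24462484 to 24475968, plus strand), whose promoter is shown above, was lower in KO. The urokinase receptor that it encodes focuses plasminogen activation at the cell surface. Its level without cytokine was 3.34, 2.36, 4.59, 5.14 and 4.99 CPM for WT, against 0.626, 0.313, 1.45, 1.19 and 0.699 CPM for KO, a difference of −2.28 ± 0.515, or 4.85-fold lower. Under TGFB1 it read 4.93, 4.72, 2.82, 5.22 and 6.63 CPM for WT, against 1.06, 0.863, 1.56, 4.45 and 0.368 CPM for KO, a difference of −1.52 ± 0.442. KO 73 alone lay within the WT range there. In the IL12 groups it stood at 4.1, 4.17, 8.67, 10.2 and 5.49 CPM for WT, against 1.16, 0.509, 1.81, 2.73 and 0.988 CPM for KO, without overlap, a difference of −2.20 ± 0.435 (−2.51 without WT 62 and 67).

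Tspan9 (ENSMUSG00000030352, chromosome 6, 127961396 to 128143594, minus strand) was the 1 gene of the 10 whose genotypes did not overlap in any of the 3 conditions. Without cytokine this tetraspanin stood at 1.0, 1.03, 1.53, 1.67 and 2.61 CPM for WT, against 0.268, 0.209, 0.396, 0.432 and 0.2 CPM for KO, a difference of −2.36 ± 0.413. In the TGFB1 groups it stood at 2.35, 1.65, 1.77, 1.14 and 3.36 CPM for WT, against 0.266, 0.108, 0.312, 0.189 and 0.368 CPM for KO, a difference of −2.97 ± 0.426. The highest KO value stayed below the lowest WT value. With IL12 the values were 2.19, 1.94, 1.16, 2.21 and 2.18 CPM for WT, against 0.231, 0.382, 0.173, 0.171 and 0.165 CPM for KO. The difference there was −2.98 ± 0.409, or 7.91-fold lower (−2.92 without WT 62 and 67). KO libraries held 1 to 6 counts of Tspan9 and WT libraries 9 to 35, so the KO level is known only roughly.

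The pair of Ras regulators was higher in KO at very different depths. Rasgef1b (ENSMUSG00000089809, chromosome 5, 99217426 to 99729065, minus strand), an exchange factor that loads small GTPases with GTP, was the most deeply counted of the 7 higher genes. Without cytokine it stood at 28.6, 25.7, 17.3, 21.3 and 24.3 CPM for WT, against 36.9, 52.0, 50.5, 29.6 and 52.3 CPM for KO, without overlap, and the difference was 0.91 ± 0.235. With TGFB1 it stood at 26, 23.5, 18.2, 25.3 and 21.4 CPM for WT, against 33.5, 41.5, 46.6, 28.5 and 36.2 CPM for KO, again without overlap, a difference of 0.71 ± 0.235. With IL12 the WT group split, with 28.7 and 30.9 CPM in libraries 62 and 67 and 11.3, 13.3 and 11.5 CPM in libraries 71, 72 and 75. KO had 42.8, 49.1, 48.4, 25.2 and 40.8 CPM, and the difference was 1.12 ± 0.236, or 1.78 without WT 62 and 67.

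Rasal2 (ENSMUSG00000070565, chromosome 1, 157135182 to 157412595, minus strand), which speeds the return of Ras to its inactive form, was the least counted, with 1 to 11 counts in WT and 4 to 36 in KO. Its level without cytokine was 0.445, 0.103, 0.471, 0.479 and 0.341 CPM for WT, against 1.07, 1.36, 2.11, 0.432 and 1.2 CPM for KO, a difference of 1.71 ± 0.464. Only KO 73 reached into the WT range. With TGFB1 the WT range was 0.265 to 0.673 CPM and the KO range 0.532 to 1.51 CPM, a difference of 1.09 ± 0.444. With IL12 they were 0.482 to 1.5 CPM and 1.11 to 2.76 CPM, a difference of 1.5 ± 0.362. WT 62 set the upper end of WT there, and without WT 62 and 67 the difference was 1.92.

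Pls1 (ENSMUSG00000049493, chromosome 9, 95752642 to 95845311, minus strand), the actin bundler plastin 1 whose promoter is shown above, had its largest difference with IL12. Without cytokine it stood at 2.89, 2.36, 3.42, 2.03 and 3.41 CPM for WT, against 6.52, 7.31, 7.52, 6.05 and 8.59 CPM for KO, well apart, a difference of 1.35 ± 0.274. TGFB1-treated cultures had 4.7, 3.78, 4.85, 9.39 and 6.25 CPM for WT, against 8.38, 10.4, 9.87, 18.9 and 13.3 CPM for KO, a difference of 1.07 ± 0.243. WT 72 was the library that reached the KO range. IL12-treated cultures had 3.83, 3.68, 1.54, 1.47 and 2.69 CPM for WT, against 7.52, 11.1, 12.2, 7.69 and 12.4 CPM for KO, a difference of 1.96 ± 0.269, or 2.42 without WT 62 and 67.

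Cables1 (ENSMUSG00000040957, chromosome 18, 11839220 to 11945630, plus strand), an adaptor between cyclin-dependent kinases and other kinases, was lower in KO, least so with IL12. Its cytokine-free level was 12.3, 15.2, 27.7, 20.1 and 26.3 CPM for WT, against 6.7, 4.8, 7.65, 9.82 and 4.69 CPM for KO, without overlap, a difference of −1.60 ± 0.357. With TGFB1 present it measured 27.8, 44.6, 33.7, 50.5 and 42.6 CPM for WT, against 21.7, 8.95, 16.8, 31.0 and 5.34 CPM for KO, a difference of −1.25 ± 0.324. KO 73 was again the highest KO library and the one inside the WT range. In the IL12 groups it measured 22.5, 21, 45, 32.3 and 19.3 CPM for WT, against 17.4, 14.5, 15.2, 26.4 and 10.5 CPM for KO, overlapping. The difference there was −0.75 ± 0.324 (−0.94 without WT 62 and 67).

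**Figure D2:**
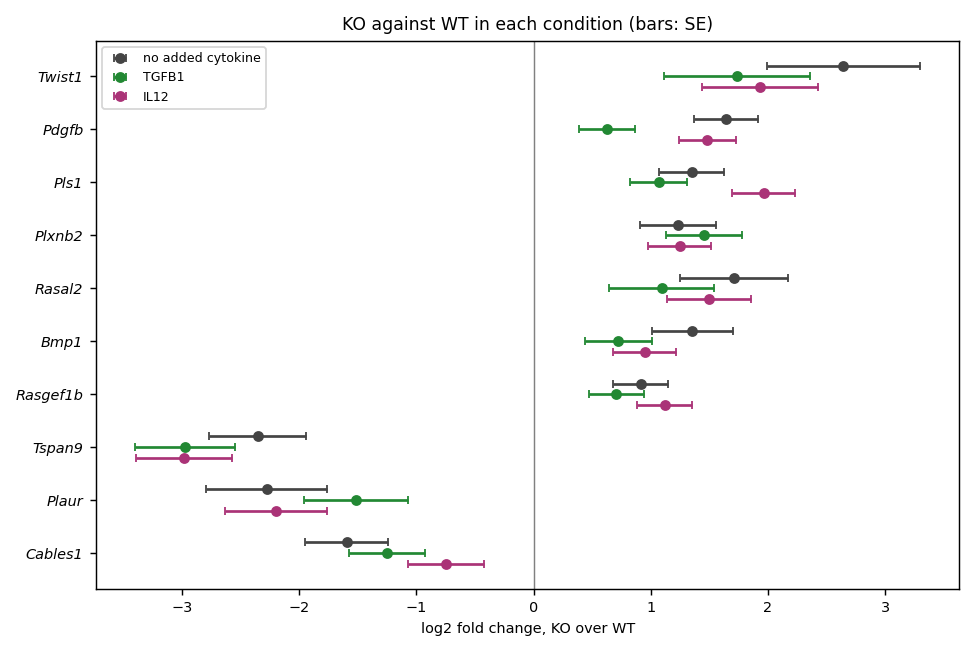
Log2 fold change of KO over WT for each gene without cytokine (grey), with TGFB1 (green) and with IL12 (purple), with bars of 1 standard error. The 7 higher genes lie between 0.63 and 2.64 and the 3 lower genes between −2.98 and −0.75.

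How many of the 10 passed the threshold depended on single libraries and on the method. The values did not change direction in any refit, but the genes were picked for this shift, so nothing is read from that. Without cytokine, 2 of 10 passed when KO 68, WT 72 or KO 74 was left out, 3 without WT 71, and 4 without KO 70 or WT 75, each from the cytokine-free groups. Calls fell over the whole table in the same refits, from 246 genes to 11, 14 and 7, to 17, and to 28 and 96, in the same order. With TGFB1, 5 passed without KO 68 and 6 without WT 67, WT 71 or KO 74, where 3063, 3141, 3022 and 2799 genes were called in place of 4166. With IL12, 6 passed without WT 75 (174 genes in all in place of 794), and a fit on the IL12 groups alone called 5 (45 genes in all). In limma-voom, 7, 8 and 9 passed in the 3 conditions (188, 4277 and 917 genes). In DESeq2, 10, 8 and 9 passed (438, 3935 and 1030 genes). With TGFB1, 7 passed with upper quartile size factors (4253 genes) and 8 with no filter (3448 genes). At a minimum count of 30, which not all 10 genes met, 7, 7 and 6 passed (233, 4013 and 763 genes).

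Compared per kilobase of exon in WT without cytokine, Cables1 was the highest of the 10 at 5.30 ± 1.75 CPM per kilobase (SD, n = 5). Rasgef1b (1.70 ± 0.312), Plaur (1.56 ± 0.457) and Pdgfb (1.10 ± 0.545) followed, on the same scale, within each other's spread. Pls1 (0.726 ± 0.159), Twist1 (0.368 ± 0.28), Tspan9 (0.315 ± 0.132) and Plxnb2 (0.166 ± 0.0609) came next, and Bmp1 (0.0629 ± 0.028) and Rasal2 (0.0268 ± 0.0115) were lowest. In KO the level per kilobase was highest for Pdgfb (3.47 ± 1.15) and Rasgef1b (3.21 ± 0.754), with Twist1 at 2.32 ± 1.34, Pls1 at 1.85 ± 0.252 and Cables1 at 1.75 ± 0.557. The 10 genes also varied more between libraries of one group than most genes did. Their SD of log2 CPM within groups was 0.41 (Rasgef1b) to 1.03 (Twist1), against a median of 0.203 over all tested genes. Between 81.7% and 99.3% of tested genes had a smaller SD than these members, and 4.57% (below Rasal2) to 51.7% (below Rasgef1b) had a lower mean level. Most of the 10 had low levels, where counting noise adds to the SD of log2 CPM. Genes of like level were not compared, so the wider spread is not shown to be a trait of these genes.

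The cytokine effects were not used to pick the genes and were tested within each genotype in the same edgeR fit, with p-values adjusted by Benjamini-Hochberg over all tested genes. TGFB1 raised 4 of the 10 genes in WT (Pdgfb, Pls1, Bmp1 and Cables1) and 3 in KO (Pdgfb, Pls1 and Cables1). The background shares of genes called with TGFB1 were 37.9% in WT (19.2% higher) and 24.5% in KO (13.5% higher). IL12 raised 3 genes in WT (Pdgfb, Plxnb2 and Bmp1) and 4 in KO (Pdgfb, Plxnb2, Bmp1 and Cables1), against 18.9% called in WT (10.5% higher) and 14.2% in KO (8.49% higher). No member was called lower with a cytokine in this fit. The median log2 effect over the 10 genes was 0.32 and 0.25 with TGFB1 in WT and KO, and 0.81 and 0.77 with IL12, beside medians over all tested genes of 0.016, 0.0075, 0.0084 and −0.0003. The cytokine comparisons share their control libraries, within each genotype, with each other and with the KO against WT comparison. The choice of the genes by the KO against WT difference can therefore shift these cytokine effects, and by how much was not tested.

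**Figure D3:**
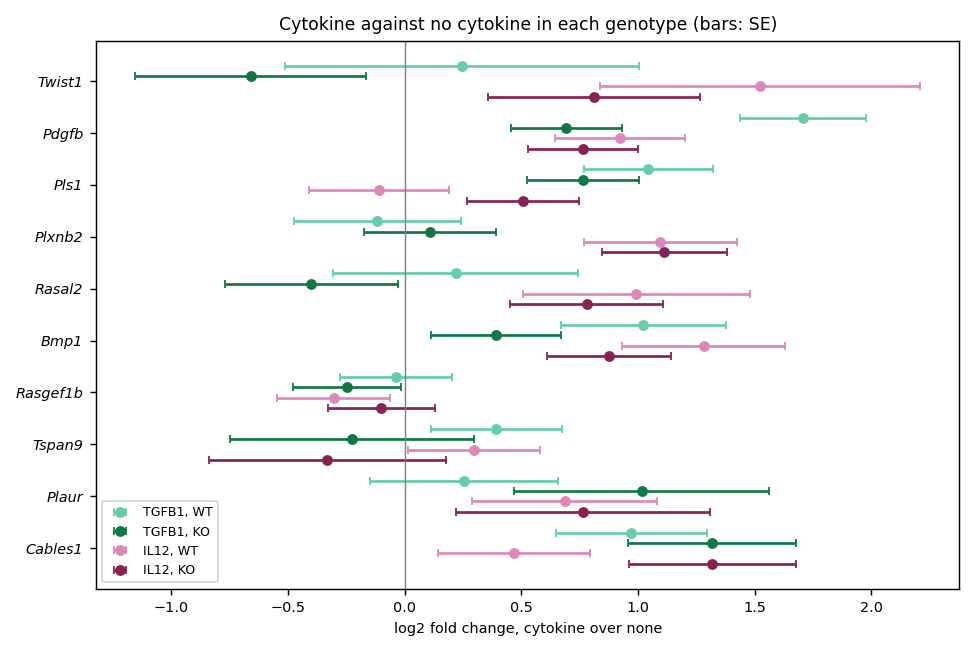
Log2 fold change of each cytokine over no cytokine in WT (light) and KO (dark), TGFB1 in green and IL12 in purple, with bars of 1 standard error. Pdgfb lies to the right of 0 in all 4 comparisons, from 0.69 to 1.71, and Rasgef1b stays near 0.

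Pdgfb was the 1 gene of the 10 called in all 4 cytokine comparisons. With TGFB1 it rose in WT from 4.59 ± 2.27 to 15.1 ± 3.24 CPM (mean ± SD, n = 5), a log2 change of 1.71 ± 0.269 (SE, adjusted p = 2.76e-05) without overlap. In KO it rose from 14.4 ± 4.77 to 23.2 ± 3.50 CPM, by 0.69 ± 0.238 (adjusted p = 0.0331). The KO call was lost without KO 63 or 73 of the cytokine-free group or KO 68, 70 or 74 of the TGFB1 group, with adjusted p from 0.059 to 0.0982. With IL12 it rose to 8.77 ± 1.76 CPM in WT, by 0.92 ± 0.278 (adjusted p = 0.0192), and to 24.4 ± 7.61 CPM in KO, by 0.77 ± 0.236 (adjusted p = 0.0276). The WT call was lost without WT 71 or 75 of the cytokine-free group or WT 72 of the IL12 group, with adjusted p from 0.056 to 0.0636. In KO it was lost without KO 63 or 73 (no cytokine) or KO 70 or 74 (IL12), with adjusted p from 0.0578 to 0.127. All 5 library numbers of each genotype were higher with either cytokine. The difference of the TGFB1 responses, KO minus WT, was −1.01 ± 0.359 (SE) on the log2 scale, which restates the smaller genotype difference with TGFB1 and was not tested. WT without cytokine had the lowest level, then WT with IL12. WT with TGFB1 and KO without cytokine (15.1 and 14.4 CPM) lay within each other's spread, as did KO with TGFB1 and KO with IL12.

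Pls1 rose with TGFB1 and was not called with IL12. In WT it went from 2.82 ± 0.618 to 5.79 ± 2.20 CPM, a log2 change of 1.04 ± 0.277 (adjusted p = 0.00389), and no library overlapped. In KO it went from 7.20 ± 0.979 to 12.2 ± 4.19 CPM, a change of 0.76 ± 0.24 (adjusted p = 0.0198), and without KO 73 of the TGFB1 group this was 0.56 (adjusted p = 0.0998). With IL12 the change was −0.11 ± 0.299 in WT cells (adjusted p = 0.837) and 0.51 ± 0.24 in KO cells (adjusted p = 0.165). All 5 KO numbers and 2 of 5 WT numbers were higher with IL12. Without WT 62 and 67 of the IL12 group the WT change was −0.56 (adjusted p = 0.231).

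Plxnb2 had the opposite pattern, rising with IL12 and not called with TGFB1. With IL12 it rose by 1.10 ± 0.327 in WT (adjusted p = 0.0173), from 1.28 ± 0.47 to 2.73 ± 0.871 CPM. In KO it rose by 1.11 ± 0.269 (adjusted p = 0.00508), from 2.97 ± 0.714 to 6.47 ± 1.47 CPM, and there the libraries did not overlap. The WT call was lost without WT 67 of the cytokine-free group (0.91, adjusted p = 0.0562) and held without WT 62 and 67 of the IL12 group (0.99, adjusted p = 0.0456). With TGFB1 the change was −0.12 ± 0.357 in WT cells (adjusted p = 0.82) and 0.11 ± 0.284 in KO cells (adjusted p = 0.818).

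Bmp1 rose with IL12 in both genotypes, by 1.28 ± 0.349 in WT cells (adjusted p = 0.00801) and by 0.88 ± 0.267 in KO cells (adjusted p = 0.0236). The mean level went from 0.558 ± 0.248 to 1.39 ± 0.396 CPM in WT and from 1.44 ± 0.375 to 2.65 ± 0.904 CPM in KO. The KO call was lost with no filter on low counts (adjusted p = 0.0556), and without KO 70 or 74 of the cytokine-free group or KO 68 or 74 of the IL12 group (adjusted p from 0.0617 to 0.0924). With TGFB1 it rose in WT to 1.14 ± 0.388 CPM, by 1.02 ± 0.354 (adjusted p = 0.0192), and was not called in KO (0.39 ± 0.28, adjusted p = 0.321). This WT call was lost with no filter (adjusted p = 0.0552), and without WT 72 or 75 of the cytokine-free group or WT 75 of the TGFB1 group (adjusted p from 0.052 to 0.0658). The difference between the genotypes in the TGFB1 response was −0.63 ± 0.451 and was not tested.

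Cables1 is lower in KO, and both cytokines raised it there. In KO it rose from 6.74 ± 2.14 to 16.8 ± 10.2 CPM with TGFB1, by 1.32 ± 0.359 (adjusted p = 0.00761), and to 16.8 ± 5.92 CPM with IL12, by 1.32 ± 0.356 (adjusted p = 0.0115), the latter without overlap. In WT it rose from 20.3 ± 6.71 to 39.8 ± 9.03 CPM with TGFB1, by 0.97 ± 0.322 (adjusted p = 0.0189), and stood at 28 ± 10.7 CPM with IL12, a change of 0.47 ± 0.325 (adjusted p = 0.332). The KO call with TGFB1 was lost without KO 73 of the TGFB1 group (0.96, adjusted p = 0.0506) and in limma-voom (adjusted p = 0.0611). The WT call was lost without WT 62 or WT 67 of the cytokine-free group (adjusted p = 0.055 and 0.0533). KO with either cytokine (16.8 CPM) and WT without cytokine (20.3 CPM) lay within each other's spread.

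The other 5 genes were not called with either cytokine in this fit. Twist1 stood higher with IL12 in all 5 numbers of each genotype, by 1.52 ± 0.686 in WT cells (adjusted p = 0.104) and 0.81 ± 0.453 in KO cells (adjusted p = 0.251). The same held for Rasal2, with 0.99 ± 0.488 in WT cells (adjusted p = 0.14, and 0.57 without WT 62 and 67 of the IL12 group, adjusted p = 0.445) and 0.78 ± 0.329 in KO cells (adjusted p = 0.108), and 0.0466 in KO without KO 70 of the cytokine-free group. Plaur was also higher in 5 of 5 numbers, with 0.69 ± 0.397 in WT cells (adjusted p = 0.233) and 0.77 ± 0.545 in KO cells (adjusted p = 0.381). With TGFB1, Plaur had 0.25 ± 0.402 in WT cells (adjusted p = 0.649) and 1.02 ± 0.547 in KO cells (adjusted p = 0.171). The latter was 0.20 without KO 73 of the TGFB1 group, its highest library. Twist1 with TGFB1 had 0.25 ± 0.758 in WT cells (adjusted p = 0.821) and −0.66 ± 0.494 in KO cells (adjusted p = 0.349). It was higher in 3 of 5 WT numbers and 1 of 5 KO numbers. Rasal2 with TGFB1 had 0.22 ± 0.525 in WT cells (adjusted p = 0.765) and −0.40 ± 0.371 in KO cells (adjusted p = 0.458). It was higher in 3 of 5 WT numbers and 2 of 5 KO numbers. In fits on the compared groups alone, Twist1 with IL12 in WT cells (adjusted p = 0.0326) and Pls1 with IL12 in KO (adjusted p = 0.0447) also passed.

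Tspan9 had cytokine effects of −0.33 to 0.39 on the log2 scale, none of them called, with adjusted p from 0.275 to 0.808. Rasgef1b was higher with TGFB1 in 2 of 5 WT numbers and 0 of 5 KO numbers. Its cytokine effects were −0.30 to −0.04 on the log2 scale, with adjusted p from 0.41 to 0.915. One of these turned on the libraries that stood apart. Without WT 62 and 67 of the IL12 group, Rasgef1b was lower with IL12 in WT, with a log2 effect of −0.96 (adjusted p = 0.00169), against −0.30 ± 0.242 with them. In KO its IL12 effect was −0.10 ± 0.228 (adjusted p = 0.833).

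Deviations from the group means tended to follow the library number. KO 73 was the lowest library of its group in 12 of 21 cases over the 7 higher genes and the 3 conditions, and the highest in 6 of 9 cases over the 3 lower genes. Its mean deviation was −0.44 on the log2 CPM scale for the 7 higher genes and 0.66 for the 3 lower ones, so it lay nearest to WT on both. KO 74 lay farther from WT on both, at 0.38 and −0.50. Among WT libraries, number 62 deviated toward KO on both, at 0.36 for the higher genes and −0.24 for the lower ones. Plaur had the widest swing of the 3 lower genes, from −0.89 in KO 68 to 1.14 in KO 73, and Twist1 the widest of all, from −1.28 in KO 63 to 1.08 in KO 74. Tspan9 had KO numbers between −0.14 and 0.14, while WT 75 was at 0.58.

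**Figure D4:**
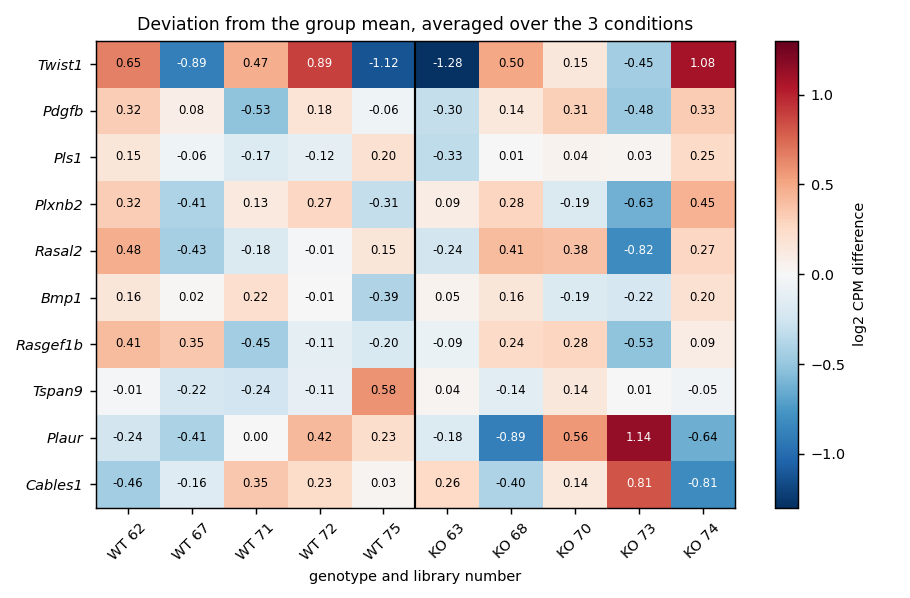
Deviation of log2 CPM from the group mean, averaged over the 3 conditions, for each gene (rows) and library number (columns, WT left of the line, KO right). KO 73 has negative values for 6 of the 7 higher genes and 1.14 and 0.81 for Plaur and Cables1.

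Within groups, levels of some of the 10 genes moved together from library to library, given here as correlations over 30 libraries after removal of the group means, which share depth and library number. Plaur and Cables1 had the highest value (r = 0.776). Plxnb2 and Rasal2 had 0.586, Pdgfb and Rasgef1b 0.56, and Twist1 and Plxnb2 0.538. Cables1 and Pdgfb had the lowest (r = −0.51), and Tspan9 and Plaur, both lower in KO, had 0.0163.

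Over all 30 libraries with the group differences kept, the genes with the most similar pattern were named by Pearson r of log2 CPM, the 2 highest for each member. Twist1 was closest to Slc35d3 (0.876) and Sdc1 (0.874), Pdgfb to Axl (0.916) and Ckb (0.904), and Pls1 to Slc16a10 (0.841) and Dusp3 (0.822). Plxnb2 was closest to Smpd4 and to Rasal2 (0.863 each), and Rasal2 to Plxnb2 and Abl2 (0.835). Bmp1 was closest to Adam15 (0.809) and Plbd2 (0.805), and Rasgef1b to Tango6 (0.895) and Stx6 (0.888). Of the lower genes, Tspan9 was closest to Psmb10 (0.815) and Tha1 (0.814), Plaur to Pcgf5 (0.898) and Tmprss6 (0.892), and Cables1 to Il2rb (0.942) and Gm6277 (0.912). These points share genotype, cytokine and library number, so the values describe these libraries only.

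Relatives of the 10 genes, meaning other members of their families and pathways, were compared in KO against WT in the same fit. These lists were drawn up with earlier results of these data known, and the genes named from them were chosen by their calls in this contrast. Of 163 listed, 107 were measured. Without cytokine, 2 were called higher and 1 lower (2.8% of those tested, against 2.10% of all genes). In the TGFB1 groups 12 were called higher and 30 lower (39.3% against 35.6%), and in the IL12 groups 7 were called higher and 3 lower (9.35% against 6.78%). These counts turned on single libraries. Without cytokine the count was 0 without KO 68, 70 or 74 or WT 71 or 72 of those groups, 1 without WT 67, 7 without WT 62 and 9 without KO 73, and it was 14 in the fit of those groups alone. With TGFB1 it was 26 without KO 74, 27 without WT 71 and 25 in those groups alone. With IL12 it was 1 without KO 68, 2 without KO 70, WT 72 or WT 75, 4 without KO 74, 5 without WT 71, 17 without WT 62 and 29 without WT 62 and 67, and it was 1 in those groups alone. The median log2 difference of the relatives was −0.0021, −0.19 and 0.08 in the 3 conditions. None of the 18 tolloid proteases and matrix substrates listed beside Bmp1 passed the filter on low counts.

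Of the plexin and semaphorin list beside Plxnb2 (18 measured), Sema4a, a semaphorin of immune cells, was lower in KO in all 3 conditions. It stood at 37.1 ± 9.07 CPM in WT and 16.5 ± 6.73 CPM in KO without cytokine, a log2 difference of −1.16 ± 0.247 (adjusted p = 0.0163). With TGFB1 the means were 14.2 ± 2.99 and 5.31 ± 2.11 CPM, a difference of −1.44 ± 0.283 (adjusted p = 0.000611), and with IL12 they were 44.5 ± 9.56 and 25 ± 7.74 CPM, a difference of −0.84 ± 0.239 (adjusted p = 0.0331). The call without cytokine was lost without KO 68, 70 or 74 or WT 71 or 72 of those groups (adjusted p from 0.0555 to 0.0791). The IL12 call was lost in the fit of those groups alone (adjusted p = 0.0715) and without KO 63, 68, 70 or 74 or WT 71, 72 or 75 (adjusted p from 0.0556 to 0.107). Arhgef12, of the same list and named after its value was seen, was higher with IL12 (0.51 ± 0.15, adjusted p = 0.0377). That call was lost in those groups alone (adjusted p = 0.119) and without KO 68, 70 or 74 or WT 72 or 75 (adjusted p from 0.0691 to 0.135). With IL12, 1 gene of this list was called higher and 1 lower (11.1%, against 6.78% of all genes). The share was 5.56% without cytokine (against 2.10%) and 44.4% with TGFB1 (against 35.6%).

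Of the 16 measured tetraspanins beside Tspan9, Cd9 was higher in KO without cytokine (0.60 ± 0.152, adjusted p = 0.0343) and lower with TGFB1 (−0.46 ± 0.151, adjusted p = 0.0177). With IL12 the difference was 0.47 ± 0.152 (adjusted p = 0.0571). The first call was lost without WT 67, 71, 72 or 75 or KO 68, 70 or 74 of those groups (adjusted p from 0.0511 to 0.139). The second was lost without WT 71, WT 75 or KO 74 (adjusted p from 0.0575 to 0.0886) and in the fit of those groups alone (adjusted p = 0.0576). Cd81 (0.68, adjusted p = 0.049) and Tspan3 (0.38, adjusted p = 0.0348), both named after their values were seen, were higher with IL12 (12.5% of the list, against 6.78%). Cd81 was 0.33 without KO 74 (adjusted p = 0.222) and 0.52 without WT 62 and 67 (adjusted p = 0.128), and its call was lost in most refits. Tspan3 lost its call in those groups alone (adjusted p = 0.112) and without WT 67, 71 or 72 or KO 68, 70 or 74 (adjusted p from 0.0579 to 0.12). With TGFB1, 2 of the 16 were called higher and 5 lower (43.8%, against 35.6% of all genes). Without cytokine 6.25% of the list was called, against 2.10%. None of the 16 was called lower without cytokine or with IL12. Of all genes tested, 0.290% were called lower in all 3 conditions, and Tspan9 was picked for its shift. Nothing is therefore read from Tspan9 standing apart from this list.

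Among the 11 measured genes of plasminogen activation and the urokinase receptor family beside Plaur, 5 were lower and 1 higher in KO with TGFB1, and 2 were lower with IL12. These are 54.5% of the list against 35.6% of all genes, and 18.2% against 6.78%. Ly6e, a surface protein of the same structural family as the urokinase receptor, was lower in KO, with a log2 difference of −1.08 ± 0.201 with TGFB1 (adjusted p = 0.000476) and −0.76 ± 0.201 with IL12 (adjusted p = 0.0253), and stood at −0.69 ± 0.201 without cytokine (adjusted p = 0.068). The IL12 call was lost without KO 68, 70 or 74 or WT 71 or 75 of those groups (adjusted p from 0.0549 to 0.0819). Plgrkt, a plasminogen receptor, was lower in KO, with a difference of −0.42 ± 0.1 with TGFB1 (adjusted p = 0.00259) and −0.40 ± 0.101 with IL12 (adjusted p = 0.0194). The latter was lost without KO 68 or 70 or WT 72 or 75 (adjusted p from 0.0537 to 0.0837) and in the fit of those groups alone (adjusted p = 0.0981).

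For the Ras regulators, 1 of 12 measured GTPase-activating genes (8.33%, against 2.10% of all genes) was higher without cytokine, Rasal1 (0.71 ± 0.194, adjusted p = 0.0469), a near relative of Rasal2 by name and domain, named after its value was seen. This call was lost in most refits, among them limma-voom (adjusted p = 0.0839), no filter (0.0763) and without any 1 of KO 63, 68, 70 or 74 or WT 67, 71, 72 or 75 of those groups (adjusted p from 0.0695 to 0.198). With IL12, Nf1 (0.48, adjusted p = 0.0325) and Spred1 (0.80, adjusted p = 0.0268) were higher, also named after the fact (16.7% of the list, against 6.78%). Both calls were lost in the fit of the compared groups alone (adjusted p = 0.0879 and 0.102) and without KO 68, WT 72 or WT 75 of those groups, that of Nf1 also without KO 73 or 74 and that of Spred1 also without KO 70 or WT 71. Rasa3 was lower with TGFB1 (−1.39 ± 0.362, adjusted p = 0.0049), where 33.3% of this list was called, against 35.6% of all genes. Of 12 measured exchange factors, Sos2 was higher with TGFB1 (0.21 ± 0.0678, adjusted p = 0.016) and with IL12 (0.30 ± 0.0673, adjusted p = 0.00969). With TGFB1, 3 exchange factors were called higher and 3 lower (50%, against 35.6% of all genes). With IL12 the share was 8.33%, against 6.78%. The TGFB1 call of Sos2 was lost without WT 67, WT 71 or KO 74 (adjusted p from 0.0564 to 0.0611), with no filter (0.0808) and in the fit of the compared groups alone (0.0702), and the IL12 call in the fit of those groups alone (0.0981).

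The remaining lists had calls with TGFB1 in the main, where 35.6% of all genes were called. The share was 12.5% for the Twist1 list and 27.3% for the Pls1 list. It was 35.7% for the Cables1 list and 40% for the Pdgfb list (1 higher and 1 lower of 5). Nothing is read from these lists as groups. Of 8 measured helix-loop-helix partners of Twist1, Id3, an inhibitor of such factors, was lower in KO with TGFB1 (−1.66 ± 0.259, adjusted p = 0.000119), at 15.6 ± 6.80 CPM against 49.3 ± 21 CPM in WT, and was not called in the other conditions (adjusted p = 0.697 and 0.192). Vegfa, of the growth factor list beside Pdgfb, was higher with TGFB1 (0.76 ± 0.224, adjusted p = 0.0103), a call lost without KO 74 (0.60, adjusted p = 0.0547) and in the fit of those groups alone (adjusted p = 0.116). Coro1a, an actin regulator listed beside Pls1, was lower with TGFB1 (−0.53 ± 0.094, adjusted p = 0.000344). Cdk5, the kinase after which Cables1 is named, was lower with TGFB1 (−0.59 ± 0.152, adjusted p = 0.00428), at 11.8 ± 1.34 CPM against 17.8 ± 5.26 CPM. With IL12, Abl2, listed beside Cables1 and also among the genes most like Rasal2, was higher in KO (0.47 ± 0.127, adjusted p = 0.0269). The share of this list called with IL12 was 7.14%, against 6.78% of all genes. The Abl2 call was lost in those groups alone (adjusted p = 0.0808) and without KO 68, KO 70, WT 72 or WT 75 (adjusted p from 0.0683 to 0.0973).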

How the data were processed

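The authors deposited raw read counts per Ensembl gene for 30 libraries. The build was GRCm38 and the tools named are STAR, Trim Galore, FastQC and DESeq2 1.24.0, per the submitters' processing notes. Which program counted reads, with what strand setting and annotation, is not given in the sources used here, so reads of overlapping or antisense genes cannot be told apart. Per the labels, RNA was poly(A)-purified and libraries were directional. Symbols, coordinates and exon lengths came from GENCODE vM21 (GRCm38), and 93 of 55573 identifiers had no symbol there (0.00021% of counts).

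The deposited counts entered edgeR 4.0.16 (R 4.3.3): filterByExpr (minimum count 10, which left 11718 genes with 99.88% of the counts), TMM scaling, 1 mean per group over all 30 libraries, quasi-likelihood tests and Benjamini-Hochberg adjustment over all tested genes. Called means an adjusted p below 0.05, two-sided. The common biological coefficient of variation was 14.3%. SE are Wald errors of the fit, and CPM use TMM factors. Totals per library limit the precision of the low genes, several of which had under 10 counts. The script was tested on simulated data. Alternatives used other size factors, filters, limma 3.58.1, DESeq2 1.42.0, a term for sex, females alone, the compared groups alone, the library number as a block and each library left out.

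The members and the lists of relatives and markers were chosen with earlier results of these data known. Named are the 10 members, Furin, the 2 genes most like each member over the 30 libraries, and, of each list of relatives, the genes called in at least 2 KO against WT comparisons or else the one with the smallest adjusted p. Arhgef12, Cd81, Tspan3, Rasal1, Nf1 and Spred1 fall outside this rule and were named after their values were seen. Of the markers, those at 1 CPM or more on average are named.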

Additional observations from a re-analysis of the deposited data

Results flagged for a closer look

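In each group of 5 libraries, the highest and lowest values of the 10 genes and of Furin were checked for a gap to the next library that was large against the range of the group. Of 66 groups, 5 had such a library, and chance gives about 1 in 20 groups. Pdgfb in WT without cytokine was highest in library 62 at 8.45 CPM, with 4.42 CPM next. Rasal2 in WT with IL12 was highest in library 62 at 1.5 CPM, with 0.678 CPM next. Bmp1 in KO with TGFB1 was highest in library 74 at 2.49 CPM, with 1.87 CPM next. Tspan9 in WT with IL12 was lowest in library 71 at 1.16 CPM, with 1.94 CPM next. Furin in KO with IL12 was highest in library 74 at 463 CPM, with 196 CPM next.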

How the results depend on the processing

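The KO against WT values of the 10 genes kept their direction in all 1217 refits, and 1 moved by more than the spread between libraries (Rasgef1b with IL12, 1.78 without WT 62 and 67 of that group). The genes were picked for this shift, so nothing is read from the kept direction. Many of these refits left out a library outside the compared groups, which hardly changes the value. Of 1621 refits of the cytokine tests, 1587 stayed on their side of the threshold, 27 lost the call and 7 gained it. The total includes effects not called at first and fits without a library outside the comparison, so it does not measure how stable the calls were. Pdgfb with TGFB1 in KO and Bmp1 with IL12 in KO each lost their call in 5 refits. Pdgfb with IL12 in KO and Bmp1 with TGFB1 in WT each lost it in 4. Among effects called in either fit, 0 reversed direction. Some uncalled effects near 0 did change sign. Twist1 with TGFB1 in WT went from 0.246 to −0.124 without WT 72 of the TGFB1 group. Plxnb2 with TGFB1 in KO went from 0.109 to −0.132 without KO 74 of that group. Genes called in KO against WT without cytokine were 246 in the fit reported, 1099 in a fit of those groups alone and 438 with DESeq2. With TGFB1 they were 4166 and, in those groups alone, 2307. With IL12 they were 794, then 504 with no filter, 45 in those groups alone and 2664 without WT 62 and 67 of the IL12 group, a setting chosen after seeing the data. That setting gave 3575 genes for IL12 against no cytokine in WT, against 2209. Of the 10 genes, 5 were called in KO against WT in the IL12 groups alone. The cause of these changes was not tested.

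Leaving out each library in turn gave 7 to 564, 2799 to 5386 and 174 to 1530 genes called in KO against WT without cytokine, with TGFB1 and with IL12. For TGFB1 against none it gave 3523 to 5373 (WT) and 2306 to 3159 (KO), and for IL12 1324 to 2727 (WT) and 1043 to 1938 (KO). Of the 10 genes it called 2 to 10, 5 to 10 and 6 to 9 in KO against WT, 3 to 4 and 1 to 3 with TGFB1 in WT and KO, and 2 to 3 and 2 to 4 with IL12.

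Equal library numbers were checked as pairs. After removal of group means, 26 of 30 same-number pairs had a correlation over 0.1 (median 0.222, from −0.033 to 0.431). For 26 of 30 libraries, one of their own number was closer than any other number of the same genotype in another condition. Not every pair passed and the labels name no shared mouse, so the numbers were not treated as pairs. With the number as a replicate block, IL12 effects passed for Twist1 in WT cells (1.6, adjusted p = 0.00739), for Twist1 in KO cells (0.82, adjusted p = 0.0257) and for Rasal2 in KO (0.77, adjusted p = 0.0341), and no cytokine call of the 10 genes was lost.

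Depth limits Tspan9, Rasal2, Bmp1 and WT Twist1 most, since libraries held as few as 1 or 2 counts of them.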
